A study of Mus musculus with 9 samples.

Results

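The genes described here encode the thin filament, the thick filament outside the myosin heavy chains, the Z-disc and the assembly factors of the sarcomere. There were 56 of them among the 24704 probe sets tested, chosen by gene symbol for the proteins they encode, and all 56 had a probe set. The choice was made with earlier results of these data known. RNA was measured on 9 Affymetrix MouseGene 2.0 ST arrays, 3 for each group, hybridised with cDNA made from total RNA. The RNA came from primary myoblasts that were grown from satellite cells of skeletal muscle of C57BL/6 mice, given as C57Bl6/N in the study's methods. Every group was seeded at 30000 cells per cm2 and differentiated for 24 h. Control myocytes then received no agent, another group received 20 ng/ml of TGFB1 protein for 24 h, and the last received ITD-1 for 24 h. ITD-1 is a small molecule that inhibits TGFβ signaling by lowering the type II TGFβ receptor. Its dose is 5 µM in the study's methods and 5 mM in the sample labels. The cultures hold muscle cells that fuse into myotubes in a dish, without nerve or load. The comparisons ask which sarcomere genes change when TGFβ signaling is raised or lowered in myocytes that have already started to differentiate.

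A sarcomere is the contractile unit of striated muscle. Thin filaments of actin, regulated by tropomyosin and the troponin complex, are anchored at Z-discs, and thick filaments of myosin are held together at the M-band. Titin runs from the Z-disc to the M-band, and nebulin runs along the thin filament in skeletal muscle. Differentiating myoblasts switch on most of these genes before and during fusion, first as embryonic and cardiac isoforms and later as fast or slow isoforms.

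Most of these genes had bright probe sets. Values are log2 intensities after RMA, which removes background, makes the arrays' distributions alike and summarises the probes of a gene, so 1 unit is a 2-fold difference. The control mean of the members ran from 2.94 (Myl3) to 12.92 (Actc1), with a median of 9.41, against a median of 4.14 for all tested probe sets. Of the 56 members, 40 lay in the top 10% by control level and 22 in the top 1%, and 6 lay under the median of all tested (Myl2, Myl3, Mybpc2, Myoz1, Myoz3 and Xirp2). These control values describe skeletal myocytes with an isoform mix that includes cardiac and embryonic forms: Actc1 was at 12.92, 12.96 and 12.88 on the control arrays, cardiac troponin T (Tnnt2) at 12.60, 12.53 and 12.45 and the embryonic light chain Myl4 at 10.86, 10.85 and 10.80. Probe sets differ in how brightly they bind, so levels are compared between arrays and not between genes. The SD of a member over the 3 arrays of a group had a median of 0.085. Array medians ran from 4.09 to 4.19, arrays of 1 group correlated at 0.992 to 0.996 over all probe sets, and no array stood apart.

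With TGFB1, 20 members fell and 2 rose, at an adjusted p under 0.05 from limma's moderated test, two-sided, over all tested probe sets. The 20 are 35.7% of the members, against 2.78% of all tested probe sets called lower, and the 2 are 3.57%, against 3.65% called higher. The median log2 difference of the 56 members was -0.17, and that of all tested was -0.01. The falls ran from 0.25 (Obsl1) to 1.29 (Ankrd2) on the log2 scale. The 2 rises were Xirp2 and Myl2, both dim in control myocytes. All 3 TGFB1 arrays lay below all 3 control arrays for 30 of the 56 members and above them for 7, against 10.1% and 10.4% of all tested. The 7 are near the share of all tested. By the study's criteria, which ask for a 1.5-fold change, 9 of the 56 members were lower and 2 higher, against 1.28% and 2.06% of all tested. With ITD-1, 0 of the 56 members were called, against 0.0607% of all tested called higher and 0.575% called lower.

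The falls were spread over every part of the sarcomere. With TGFB1, 3 of 12 actins, troponins and tropomyosins fell, 4 of 7 genes of thin filament length and actin assembly, 2 of 8 light chains and myosin-binding proteins, 2 of 5 genes of titin and the M-band, 5 of 18 Z-disc genes and 4 of 6 genes for I-band ankyrin repeat proteins, Kelch proteins and myosin chaperones. The number of falls was 13 when control replicate 1, control replicate 2 or TGFB1 replicate 2 was left out. The arrays measure RNA of a whole culture, so fewer cells of a type and less RNA per cell cannot be told apart. Replicates are described in the study as independent experiments, the labels only number them, and p-values measure the spread between these arrays.

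**Figure D1:**
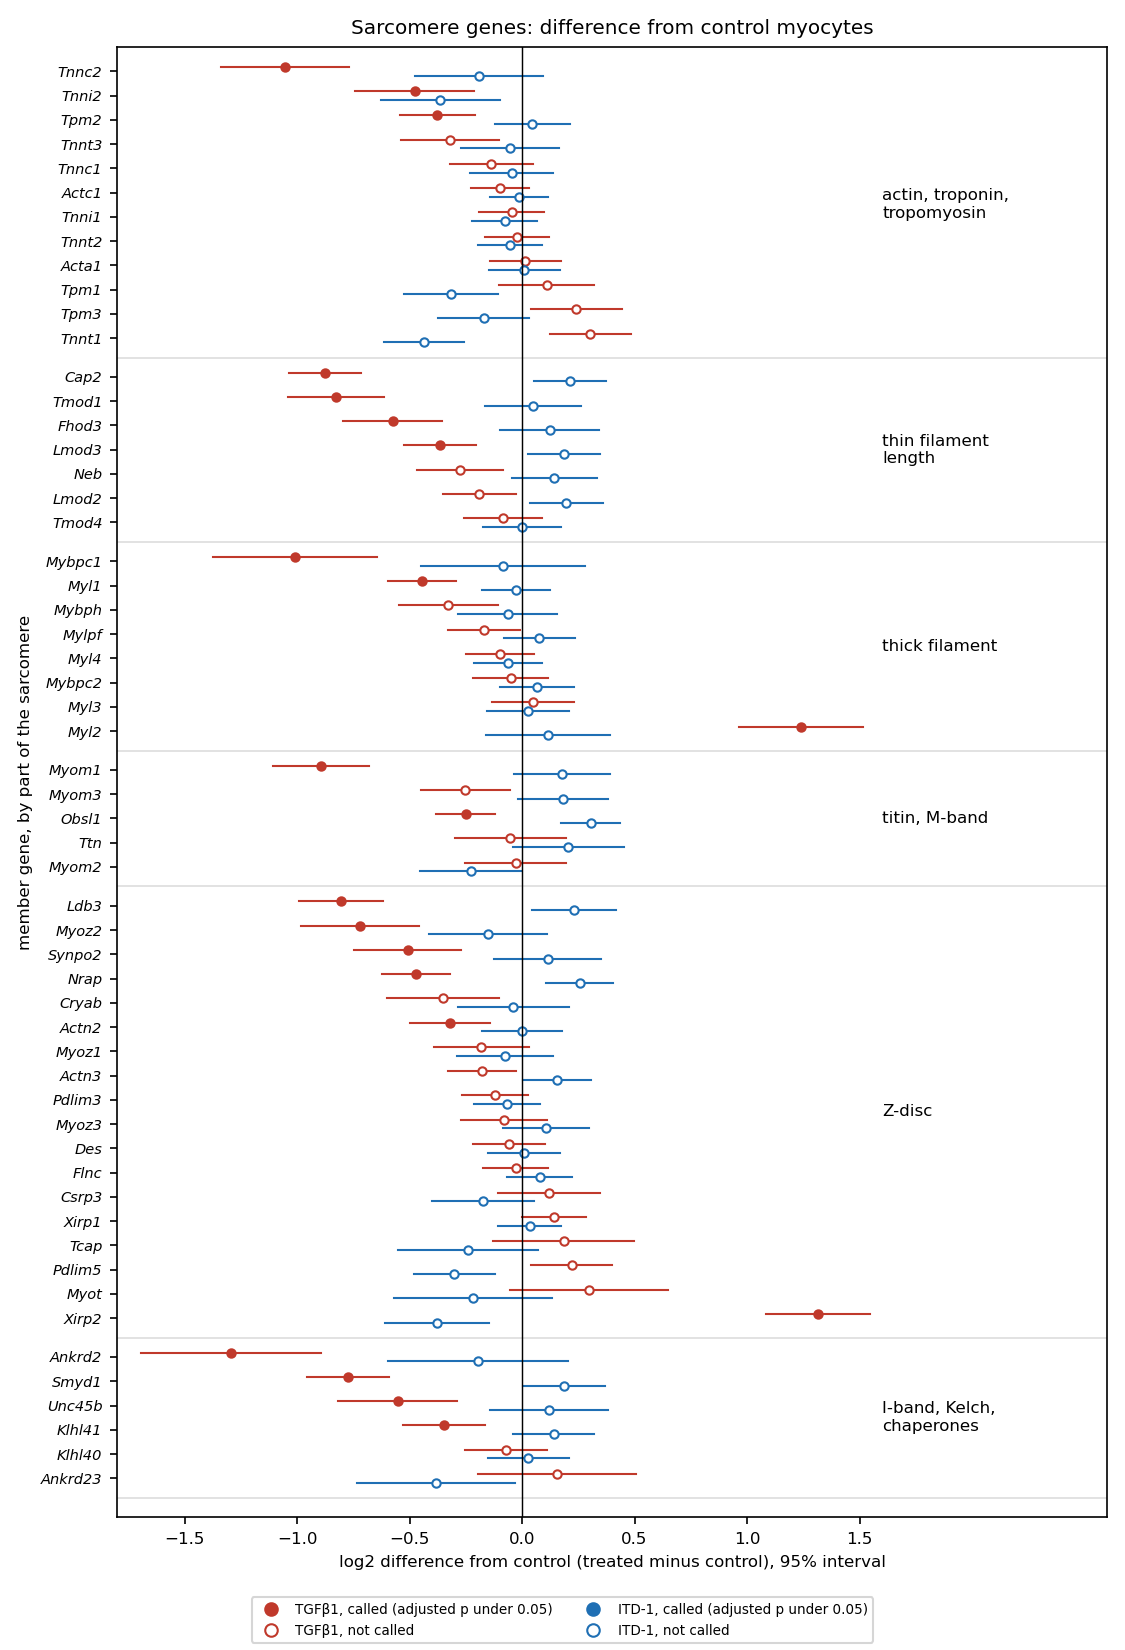
Log2 difference from control of the 56 genes, by part of the sarcomere, with TGFB1 in red and ITD-1 in blue. Points are differences of group means (3 arrays each), lines are 95% intervals from limma, and filled points passed an adjusted p of 0.05. Filled red points lie to the left of 0 for 20 genes and to the right for 2, and no blue point is filled.

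Bright genes were called more often than dim ones, so the members were also read against bright probe sets. Among the 2471 probe sets in the top 10% by control level, 11.6% were called lower with TGFB1 and 6.56% higher. Of the 40 members in that range, 16 were called lower, or 40%, and 0 were called higher. Of the other 16 members, 4 fell and 2 rose. The 4 members with a control mean over 12, Acta1, Actc1, Tnnt2 and Mylpf, differed by -0.17 to 0.01 and none was called. The highest value on any array was 13.50, and whether differences between signals this bright are compressed was not tested.

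**Figure D2:**
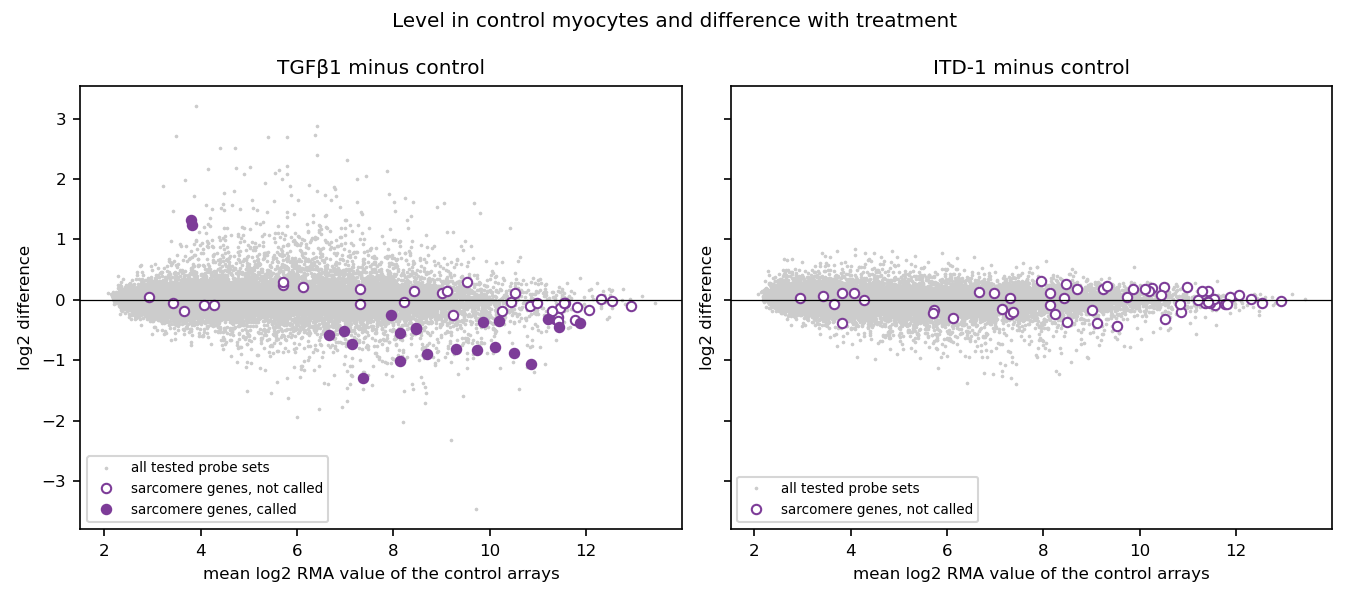
Log2 difference from control against the mean log2 value of the 3 control arrays, for TGFB1 (left) and ITD-1 (right). Grey points are all 24704 tested probe sets and purple circles are the 56 sarcomere genes, filled where called. With TGFB1 the called genes lie below 0 from a control level of 6.66 upward, apart from 2 dim genes above 0, and with ITD-1 none is called.

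The sequences around the gene starts are shown for genes that stand for the patterns described below: a member that rose with TGFB1 (Xirp2), members that fell in the M-band, Z-disc and I-band (Myom1, Ldb3, Ankrd2), and skeletal actin (Acta1), which was not called. Windows of 250 bases before to 50 bases after the RefSeq start, on GRCm38.p6, were found for 43 of the 56 members. Ldb3 has a pair of starts and the first window is printed. Each window was searched on both strands for the E-box CAGCTG, which MyoD family factors bind, and for CATTCC, the core that TEAD factors bind. TATAAA, the MEF2 site and the CArG box, which serum response factor binds, were searched too. The MEF2 site was C or T, then TA, 4 bases of A or T, TA, and A or G. The CArG box was CC and GG around 6 bases of A or T. Capitals mark the matches.
Xirp2 (chr2:67445752-67446051, plus strand): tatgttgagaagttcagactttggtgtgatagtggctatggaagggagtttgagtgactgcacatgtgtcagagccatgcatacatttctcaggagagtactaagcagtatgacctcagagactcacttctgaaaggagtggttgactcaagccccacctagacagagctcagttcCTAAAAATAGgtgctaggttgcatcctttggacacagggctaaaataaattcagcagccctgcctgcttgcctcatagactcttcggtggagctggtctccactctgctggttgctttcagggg
Myom1 (chr17:71019307-71019606, plus strand): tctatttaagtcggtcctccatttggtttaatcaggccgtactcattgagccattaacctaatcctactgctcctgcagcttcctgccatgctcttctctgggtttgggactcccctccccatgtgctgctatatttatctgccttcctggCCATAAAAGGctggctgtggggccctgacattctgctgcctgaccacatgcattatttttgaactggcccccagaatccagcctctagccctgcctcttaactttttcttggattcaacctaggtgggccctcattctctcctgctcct
Ldb3 (chr14:34588632-34588931, minus strand): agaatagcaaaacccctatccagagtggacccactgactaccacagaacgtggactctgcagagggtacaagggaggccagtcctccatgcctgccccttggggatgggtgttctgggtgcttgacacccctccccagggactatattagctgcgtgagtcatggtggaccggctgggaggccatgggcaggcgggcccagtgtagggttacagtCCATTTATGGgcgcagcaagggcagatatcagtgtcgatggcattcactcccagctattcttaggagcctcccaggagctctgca
Ankrd2 (chr19:42035777-42036076, plus strand): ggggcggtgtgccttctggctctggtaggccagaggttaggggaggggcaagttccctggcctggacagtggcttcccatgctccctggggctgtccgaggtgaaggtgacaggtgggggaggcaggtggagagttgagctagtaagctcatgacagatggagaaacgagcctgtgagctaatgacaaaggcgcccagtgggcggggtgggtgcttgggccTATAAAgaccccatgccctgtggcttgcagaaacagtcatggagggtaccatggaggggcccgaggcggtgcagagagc
Acta1 (chr8:123894726-123895025, minus strand): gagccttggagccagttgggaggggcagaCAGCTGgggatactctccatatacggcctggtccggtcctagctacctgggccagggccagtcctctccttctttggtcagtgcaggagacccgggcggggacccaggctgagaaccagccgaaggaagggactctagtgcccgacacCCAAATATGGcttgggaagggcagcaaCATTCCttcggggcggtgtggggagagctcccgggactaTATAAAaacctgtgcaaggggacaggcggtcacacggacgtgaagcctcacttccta
Xirp2 carries a MEF2 site that starts 74 bases before the gene start. Myom1 and Ldb3 carry a CArG box, 99 and 35 bases before it, and Ankrd2 carries a TATAAA 29 bases before it. Acta1 holds 4 of the motifs, with its CArG box 73 bases before the start and the E-box 221 bases before it. Over the 43 members, CAGCTG was in 41.9% of genes (18.3% of all 27025 genes with a window), CATTCC in 30.2% (16.6%), the MEF2 site in 14% (3.7%), the CArG box in 11.6% (1.81%) and TATAAA in 23.3% (15.7%). Of the 17 members with a window that fell with TGFB1, 7 held CAGCTG, 2 CATTCC, 3 a MEF2 site, 2 a CArG box and 4 TATAAA. Of the 24 that were not called, 10 held CAGCTG, 11 CATTCC, 2 a MEF2 site, 3 a CArG box and 5 TATAAA. No test was run on these counts.

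In the thin filament, the actins were not called while fast troponin C and fast troponin I fell with TGFB1. Acta1, skeletal α-actin, read 12.35, 12.36 and 12.22 on the control arrays, 12.39, 12.33 and 12.25 with TGFB1 and 12.31, 12.27 and 12.38 with ITD-1. Its TGFB1 difference was 0.014 with a 95% interval from -0.14 to 0.17, and that of Actc1, cardiac α-actin, was -0.10 (-0.23 to 0.03). Neither interval reached a 1.5-fold change in either direction, for signals near the top of the scale. Tnnc2, the calcium-binding subunit of fast troponin, read 11.08, 10.77 and 10.73 in control, 9.90, 9.78 and 9.74 with TGFB1 and 10.87, 10.72 and 10.42 with ITD-1. All 3 TGFB1 arrays lay below all of the other 6. Tnnc2 fell by 1.05 ± 0.13 (SE, 3 arrays against 3), or 2.07-fold (limma, adjusted p = 0.000861). Its slow and cardiac counterpart Tnnc1 differed by -0.14 (-0.32 to 0.047).

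Of the inhibitory troponins, the fast form was also called lower with TGFB1 and the slow form was not called. Fast troponin I did not separate TGFB1 from ITD-1, with a difference of -0.11 (limma, adjusted p = 0.66). That of Tnnc2 was -0.86 (adjusted p = 0.00169). Fast troponin I, Tnni2, read 8.66, 8.43 and 8.34 in control, 8.05, 8.13 and 7.83 with TGFB1 and 8.21, 7.93 and 8.21 with ITD-1, so both treated groups lay below the control arrays. It fell by 0.48 with TGFB1 (limma, adjusted p = 0.0424), and this call was lost with replicate as a block (adjusted p = 0.0508) and without any of 7 single arrays: control 1 or 2, TGFB1 1, 2 or 3, or ITD-1 1 or 3 (adjusted p 0.0538 to 0.15). Slow troponin I, Tnni1, read 11.62, 11.57 and 11.47 in control, 11.51, 11.54 and 11.48 with TGFB1 and 11.50, 11.42 and 11.51 with ITD-1. Its arrays overlapped in every pair of groups.

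The tropomyosin-binding troponins T moved in different directions. Slow Tnnt1 read 9.57, 9.51 and 9.48 in control, 9.88, 9.80 and 9.79 with TGFB1 and 9.13, 9.20 and 8.92 with ITD-1. The TGFB1 arrays lay above and the ITD-1 arrays below the controls, by 0.30 (limma, adjusted p = 0.0568) and -0.44 (adjusted p = 0.0522), neither of which passed. TGFB1 against ITD-1 passed, at 0.74 ± 0.08 (adjusted p = 0.000232). Fast Tnnt3 read 11.46, 11.33 and 11.26 in control, 11.17, 10.96 and 10.95 with TGFB1 and 11.38, 11.37 and 11.13 with ITD-1, a TGFB1 difference of -0.32 that passed only with replicate as a block (adjusted p = 0.0982 without the block and 0.0391 with it). Cardiac Tnnt2 differed by -0.022 with TGFB1 and -0.052 with ITD-1.

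Of the tropomyosins, which lie along actin and gate myosin, Tpm2 fell with TGFB1. Tpm2, β-tropomyosin, read 11.89, 11.86 and 11.87 in control, 11.58, 11.46 and 11.46 with TGFB1 and 12.01, 11.96 and 11.80 with ITD-1, a fall of 0.38 ± 0.074 (limma, adjusted p = 0.0137). The call was lost without control replicate 1 (adjusted p = 0.055) or TGFB1 replicate 2 (adjusted p = 0.0567). Tpm1 and Tpm3 lay the other way. Tpm1, α-tropomyosin, read 10.54, 10.46 and 10.56 in control, 10.64, 10.59 and 10.66 with TGFB1 and 10.33, 10.30 and 9.98 with ITD-1, and Tpm3, the slow muscle form that is also made in most cells, read 5.72, 5.74 and 5.70 in control, 5.86, 6.03 and 6.00 with TGFB1 and 5.36, 5.69 and 5.60 with ITD-1. For both, all TGFB1 arrays lay above all control arrays, and all ITD-1 arrays lay below them. Against control neither passed, with TGFB1 differences of 0.11 and 0.24.

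**Figure D3:**
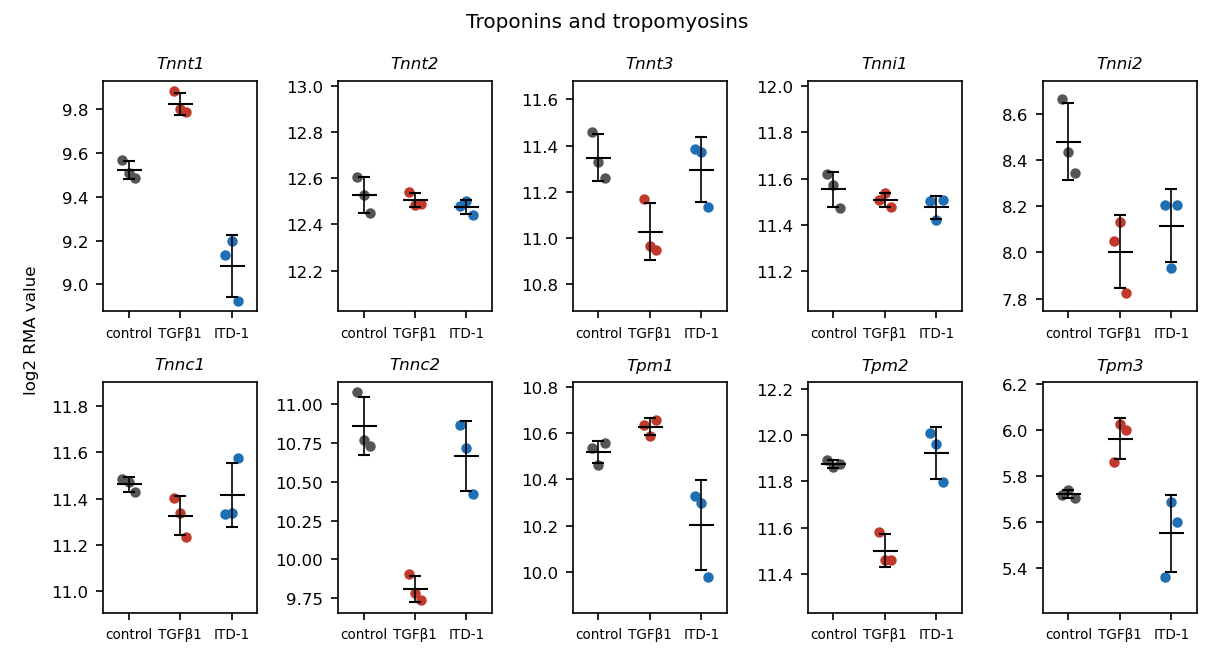
Log2 RMA values of the troponins and tropomyosins on each of the 9 arrays, in control, TGFB1 and ITD-1 cultures. Points are arrays and bars are the mean and SD (n = 3), and each panel has its own axis of at least 1 log2 unit. Tnnc2 and Tpm2 are low in the TGFB1 arrays, Tnnt1, Tpm1 and Tpm3 are high in TGFB1 and low in ITD-1, and Tnnt2 and Tnni1 overlap.

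Genes that cap, elongate and assemble the thin filament had 4 falls among 7 members, and all 7 differences with TGFB1 were below 0. Cap2, a cyclase-associated protein that binds actin monomers and severs filaments, read 10.58, 10.50 and 10.43 in control, 9.68, 9.64 and 9.56 with TGFB1 and 10.76, 10.75 and 10.63 with ITD-1. The 3 groups did not overlap, with ITD-1 above and TGFB1 below the controls. Tmod1, tropomodulin, which caps the pointed end of the thin filament, read 9.90, 9.77 and 9.52 in control, 8.90, 8.88 and 8.93 with TGFB1 and 9.85, 9.74 and 9.75 with ITD-1. It fell by 0.83 ± 0.095, or 1.77-fold (limma, adjusted p = 0.000617), and the ITD-1 arrays overlapped the controls. Tmod4, the other tropomodulin of skeletal muscle, lay near the median of all probe sets on all 9 arrays (4.06 to 4.35) and differed by -0.084.

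Fhod3, a formin that builds actin filaments in cardiac sarcomeres, read 6.74, 6.73 and 6.52 in control, 6.04, 6.08 and 6.16 with TGFB1 and 6.98, 6.70 and 6.68 with ITD-1, a fall of 0.57 (limma, adjusted p = 0.00665). Leiomodins nucleate actin and let the pointed end grow. Lmod3, the skeletal leiomodin, read 9.88, 9.91 and 9.81 in control, 9.56, 9.49 and 9.46 with TGFB1 and 10.14, 10.07 and 9.95 with ITD-1, in groups that did not overlap, and fell by 0.36 with TGFB1 (adjusted p = 0.013). That call was lost without control replicate 1 (adjusted p = 0.0524) or control replicate 2 (adjusted p = 0.0609). Lmod2, the cardiac and skeletal leiomodin, differed by -0.19 (adjusted p = 0.209), and Neb, nebulin, by -0.28 (adjusted p = 0.105, and 0.0479 without ITD-1 replicate 3). Neither was called against control, and both were lower in TGFB1 than in ITD-1 arrays, by 0.39 and 0.42 (adjusted p = 0.00663 and 0.0103).

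In the thick filament, the light chains divided. Myl2, the regulatory light chain of slow and cardiac muscle, read 3.90, 3.72 and 3.85 in control, 4.90, 5.19 and 5.10 with TGFB1 and 3.95, 4.17 and 3.69 with ITD-1. It rose by 1.24 ± 0.12 on the log2 scale (limma, adjusted p = 0.000256). No fold is given for Myl2 or for Xirp2, since their control values lay under the median of all probe sets and are not shown to be above background. Every TGFB1 array was above every other array. The fast regulatory light chain Mylpf read 12.14, 12.02 and 12.02 in control, 11.97, 11.89 and 11.82 with TGFB1 and 12.20, 12.06 and 12.15 with ITD-1, with TGFB1 arrays below the controls by 0.17 (adjusted p = 0.276, not called). Of the essential light chains, fast Myl1 read 11.52, 11.42 and 11.36 in control, 11.02, 10.93 and 11.02 with TGFB1 and 11.44, 11.43 and 11.36 with ITD-1 and fell by 0.44 ± 0.067 (adjusted p = 0.00342). Embryonic and atrial Myl4 differed by -0.10 (-0.25 to 0.052), and slow Myl3 by 0.048.

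The myosin-binding proteins, which link thick filaments to titin and tune cross-bridges, showed 1 call. Mybpc1, the slow form of myosin-binding protein C, read 8.41, 8.11 and 7.89 in control, 7.09, 6.98 and 7.31 with TGFB1 and 8.35, 7.94 and 7.86 with ITD-1. It fell by 1.01 ± 0.16, or 2.01-fold (limma, adjusted p = 0.0046), and its control arrays were spread over 0.53 log2 units. Mybph, a smaller relative, had TGFB1 arrays below all controls and a difference of -0.33 (adjusted p = 0.0964) that passed only without control replicate 3 (adjusted p = 0.0211). The fast form Mybpc2 stayed at 3.23 to 3.54 on all 9 arrays.

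At the M-band, Myom1 fell while titin, Myom2 and Myom3 were not called. Myom1, myomesin 1, which crosslinks thick filaments and whose promoter window with a CArG box is printed above, read 8.73, 8.85 and 8.51 in control, 7.79, 7.84 and 7.78 with TGFB1 and 8.97, 8.89 and 8.75 with ITD-1. Its fall was 0.89 ± 0.095, or 1.86-fold (limma, adjusted p = 0.000388). Myom2, the myomesin of adult fast fibres, read 8.26, 8.39 and 8.05 in control, 8.18, 8.21 and 8.22 with TGFB1 and 8.13, 7.85 and 8.03 with ITD-1, a TGFB1 difference of -0.028. Myom3, of slow and intermediate fibres, read 9.17, 9.32 and 9.20 in control, 9.08, 9.07 and 8.79 with TGFB1 and 9.42, 9.37 and 9.45 with ITD-1. Its 3 groups did not overlap, with ITD-1 highest and TGFB1 lowest, and TGFB1 against control was -0.25 (adjusted p = 0.167).

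Obsl1, obscurin-like 1, which binds titin and myomesin, had the same order of groups with little spread. It read 7.92, 7.97 and 7.95 in control, 7.72, 7.71 and 7.66 with TGFB1 and 8.24, 8.29 and 8.22 with ITD-1. The fall of 0.25 with TGFB1 (limma, adjusted p = 0.0326) was lost with replicate as a block (adjusted p = 0.0617) and without any 1 of the control or TGFB1 arrays or ITD-1 replicate 1 (adjusted p 0.0525 to 0.123). With ITD-1 it was 0.31 above control (adjusted p = 0.063), which did not pass. Titin, Ttn, read 10.91, 10.99 and 11.03 in control, 10.94, 10.76 and 11.08 with TGFB1 and 11.39, 11.15 and 11.02 with ITD-1, with a TGFB1 difference of -0.053 (-0.30 to 0.19).

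The Z-disc held 1 of the 2 rises and 5 of the falls. Xirp2, an actin-binding Xin repeat protein of the Z-disc and cell junctions, read 3.76, 3.80 and 3.87 in control, 5.04, 5.19 and 5.16 with TGFB1 and 3.66, 3.24 and 3.41 with ITD-1. It rose by 1.32 ± 0.10 on the log2 scale with TGFB1 (limma, adjusted p = 7.35e-05), and all ITD-1 arrays were below all control arrays by a difference of -0.38 that did not pass (adjusted p = 0.247). Its relative Xirp1 had TGFB1 arrays above the controls by 0.14 (adjusted p = 0.303), which did not pass either. Xirp1 read 8.39, 8.47 and 8.40 in control, 8.49, 8.61 and 8.59 with TGFB1 and 8.47, 8.42 and 8.47 with ITD-1.

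Ldb3, also called ZASP or Cypher, a PDZ-LIM protein that binds α-actinin, read 9.35, 9.39 and 9.19 in control, 8.53, 8.61 and 8.38 with TGFB1 and 9.59, 9.48 and 9.54 with ITD-1. It fell by 0.80 ± 0.083, or 1.75-fold (limma, adjusted p = 0.000336), and the 3 groups did not overlap. Nrap, a nebulin-related protein of growing myofibrils, read 8.47, 8.54 and 8.43 in control, 7.99, 8.08 and 7.95 with TGFB1 and 8.75, 8.78 and 8.67 with ITD-1. It showed the same order, with a fall of 0.47 with TGFB1 (adjusted p = 0.0023). Myoz2, the calsarcin of slow and cardiac muscle, which tethers calcineurin to the Z-disc, read 7.31, 7.19 and 6.91 in control, 6.30, 6.49 and 6.45 with TGFB1 and 7.01, 7.12 and 6.82 with ITD-1 and fell by 0.72 (adjusted p = 0.00477). The other calsarcins, Myoz1 and Myoz3, lay between 3.41 and 4.27 on all arrays and were not called.

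Synpo2, myopodin, which bundles actin at the Z-disc, fell by 0.51 (limma, adjusted p = 0.0192). The call was lost without control replicate 2 (adjusted p = 0.0744), TGFB1 replicate 2 (0.0648) or TGFB1 replicate 3 (0.0682). Synpo2 and Myoz2 are neighbours on chromosome 3, with 0 protein-coding genes between them in the RefSeq annotation. Actn2, the α-actinin that crosslinks thin filaments at the Z-disc, read 11.28, 11.29 and 11.05 in control, 10.88, 10.88 and 10.91 with TGFB1 and 11.28, 11.15 and 11.20 with ITD-1. Its fall of 0.32 (adjusted p = 0.0433) was lost with replicate as a block (adjusted p = 0.0699) and without any 1 of 8 arrays, all but control replicate 3 (adjusted p 0.055 to 0.165). Fast Actn3 read 11.32, 11.28 and 11.26 in control, 11.10, 11.10 and 11.13 with TGFB1 and 11.41, 11.36 and 11.55 with ITD-1, in groups that did not overlap, with TGFB1 lowest at -0.18 (adjusted p = 0.206, not called).

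The other Z-disc genes were not called against control. Des (desmin) differed by -0.057, Flnc (filamin C) by -0.028, Pdlim3 by -0.12, Csrp3 (muscle LIM protein) by 0.12 and Tcap (telethonin) by 0.19 with TGFB1. Cryab, αB-crystallin, a chaperone of desmin, had TGFB1 arrays below the controls, at -0.35 (limma, adjusted p = 0.116), and was called lower with replicate as a block in a fit of the control and TGFB1 arrays only (adjusted p = 0.036). Pdlim5 had TGFB1 arrays above and ITD-1 arrays below the controls, at 0.22 and -0.30. Myot, myotilin, differed by 0.30, with an interval from -0.055 to 0.65. Of the 34 members not called with TGFB1, 32 had an interval within a 1.5-fold change in either direction, and Myot and Cryab did not.

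Of the 6 I-band and chaperone genes, 4 fell. Ankrd2, a stretch-responsive ankyrin repeat protein that binds titin in the I-band and moves to the nucleus, read 7.38, 7.56 and 7.15 in control, 6.01, 6.47 and 5.73 with TGFB1 and 7.21, 7.30 and 6.99 with ITD-1. Its fall of 1.29 ± 0.18, or 2.45-fold (limma, adjusted p = 0.00192), was the largest among the members, and its TGFB1 arrays were spread over 0.74 log2 units. Its relative Ankrd23 read 9.40, 9.24 and 8.72 in control, 9.22, 9.43 and 9.18 with TGFB1 and 8.78, 8.65 and 8.79 with ITD-1, with overlap between control and TGFB1 and a difference of 0.16. Smyd1, a methyltransferase that, with the chaperone Unc45b, helps myosin fold into thick filaments, read 10.12, 10.16 and 10.05 in control, 9.44, 9.38 and 9.20 with TGFB1 and 10.36, 10.32 and 10.21 with ITD-1. Smyd1 fell by 0.77 ± 0.081, or 1.71-fold (adjusted p = 0.000372), in groups that did not overlap.

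Unc45b itself fell by 0.55 (limma, adjusted p = 0.0205), a call that was lost without control replicate 1 or 2 or any 1 of the TGFB1 arrays (adjusted p 0.0573 to 0.0853). Klhl41, a Kelch protein that stabilises nebulin, fell by 0.35 (adjusted p = 0.0325). It was lost without control replicate 1 or 2, any 1 of the TGFB1 arrays or ITD-1 replicate 2 (adjusted p 0.0511 to 0.119), and with replicate as a block in a fit of the control and TGFB1 arrays only (adjusted p = 0.0528). Klhl40, which protects Lmod3 and nebulin from breakdown, differed by -0.072 (-0.25 to 0.11).

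**Figure D4:**
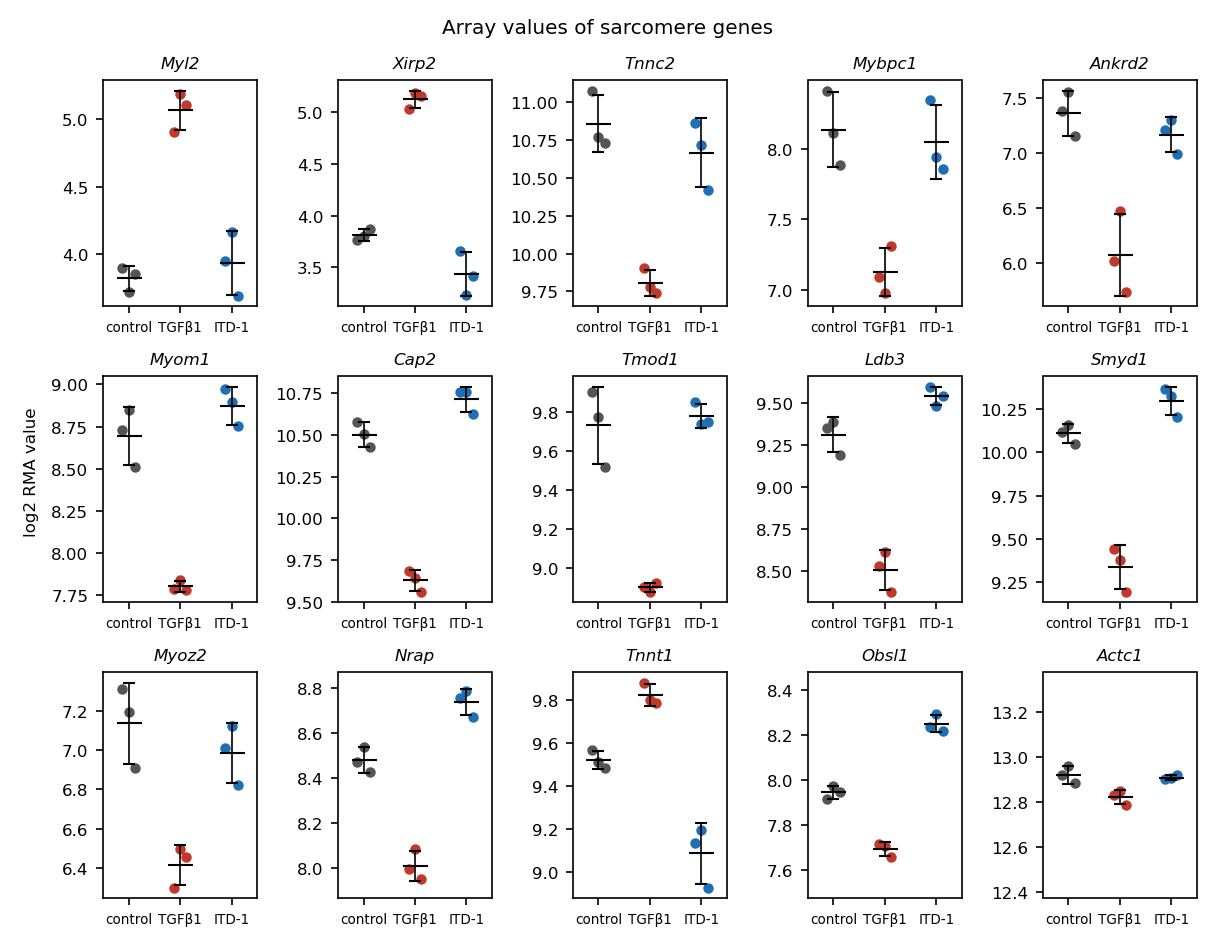
Log2 RMA values of 15 sarcomere genes on each of the 9 arrays, in control, TGFB1 and ITD-1 cultures. Points are arrays and bars are the mean and SD (n = 3), and each panel has its own axis of at least 1 log2 unit. Myl2 and Xirp2 are high in TGFB1, the genes from Tnnc2 to Nrap are low in TGFB1, and Tnnt1 and Obsl1 differ in order between the 3 groups.

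The members were also read by isoform class, with no test between classes. Of a list of 8 genes known from fast fibres, Tnnc2, Tnni2 and Myl1 fell with TGFB1. Where leaving out a single array lost Tnni2, 2 of the 8 were called. With replicate as a block, Tnni2 was lost and Tnnt3 was called lower instead (limma, adjusted p = 0.0391). In the main fit the other 5 had differences below 0 without a call. That of Mybpc2 lay above 0 under some alternatives (up to 0.019). Of a list of 8 genes known from slow fibres, Myl2 rose, Mybpc1 and Myoz2 fell, and 5 were not called. The share called lower was 37.5% of the fast and 25% of the slow genes, against 2.78% of all tested. Myom2 and Myom3 are on neither list. None of the 3 embryonic or cardiac forms, Tnnt2, Actc1 and Myl4, was called. Some troponin genes are close neighbours. Tnni2 and Tnnt3 on chromosome 7, and Tnni1 and Tnnt2 on chromosome 1, each have 1 protein-coding gene between them.

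With ITD-1, no member was called, and the differences were smaller. They ran from -0.44 (Tnnt1) to 0.31 (Obsl1), with a median of 0.0051 for the members and 0.006 for all tested. By limma, 8 of the 56 members were higher and 7 lower at an unadjusted p under 0.05, against 3.42% and 4.46% of all tested. The ITD-1 arrays lay above all control arrays for 9 of the 56 members and below them for 6, against 5.22% and 5.92% of all tested. The genes closest to a call were Tnnt1 and Obsl1, whose values are given above, then Nrap at 0.26 (adjusted p = 0.218), Pdlim5 at -0.30 (adjusted p = 0.23) and Xirp2. For Nrap the ITD-1 arrays were all above the controls, and for Pdlim5, which read 6.22, 6.13 and 6.00 in control, 6.46, 6.30 and 6.25 with TGFB1 and 5.80, 5.82 and 5.83 with ITD-1, they were all below.

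Thin filament genes lay on both sides of control. Lmod2 read 10.33, 10.30 and 10.15 in control, 10.01, 10.15 and 10.04 with TGFB1 and 10.42, 10.44 and 10.50 with ITD-1, and lay above control with ITD-1 by 0.20 (limma, adjusted p = 0.496). Tpm1 lay below control by 0.32 (adjusted p = 0.304) and Tnni2 by 0.36 (adjusted p = 0.379). Cap2 and Ldb3 were 0.21 and 0.23 above control. None of these passed. The 95% interval lay within a 1.5-fold change in either direction for 51 of the 56 members, the exceptions being Tnnt1, Tnni2, Xirp2, Ankrd2 and Ankrd23.

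TGFB1 and ITD-1 cultures differed in more members than either did from control. In TGFB1 arrays 23 members were lower and 6 higher than in ITD-1 arrays, or 41.1% and 10.7%, against 4.26% and 5.92% of all tested. By the study's criteria 12 of the 56 members were lower and 3 higher, against 1.84% and 3.49% of all tested. This comparison shares its arrays with the other comparisons, so its values are no separate evidence. The 6 higher members were Xirp2, Myl2, Tnnt1, Pdlim5, Tpm1 and Tpm3, and their differences ran from 0.41 to 1.69. Among the lower members, Ankrd2 differed by -1.10, Cap2 by -1.09, Myom1 by -1.07, Ldb3 by -1.03, Smyd1 by -0.96 and Nrap by -0.73 (limma, adjusted p from 1.05e-05 to 0.00307). Of the genes of thin filament length, 6 of 7 were lower in TGFB1 than in ITD-1, all but Tmod4.

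Of these 29 calls, 4 did not hold without a single array. Tpm1 was lost without TGFB1 replicate 1 (limma, adjusted p = 0.0604) or 3 (0.053), Tpm3 without TGFB1 replicate 2 (0.0669) or 3 (0.0524), Myoz2 without TGFB1 replicate 1 (0.0535), and Actn2 without any 1 of the TGFB1 arrays or ITD-1 replicate 1 or 3 (0.0599 to 0.101). Some members that were not called passed when an array was left out: Tcap (0.0473) and Myot (0.0296) without control replicate 3, Myot (0.0484) and Csrp3 (0.0354) without TGFB1 replicate 3, and Ankrd23 without control replicate 1 (0.0411) or 3 (0.00585).

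Genes next to the members in the same structures were read from a list of 50, of which 48 had a probe set. With TGFB1, 9 of the 48 rose and 10 fell, or 18.8% and 20.8%, against 3.65% and 2.78% of all tested. The 3 falls with the smallest adjusted p were Trim63 (-0.76, adjusted p = 0.000256), Trim54 (-0.66, 0.000384) and Hspb8 (-1.11, 0.000388), by limma. Trim63 and Trim54 encode the ubiquitin ligases MuRF1, which binds titin at the M-band, and MuRF3, which binds microtubules, and Hspb8 is a small chaperone that acts with Bag3 at the Z-disc. The 3 rises with the smallest adjusted p were Flna (0.73, 0.000339), Pdlim1 (1.33, 0.000384) and Actn1 (0.82, 0.000425). These encode the filamin, a PDZ-LIM protein and the α-actinin of stress fibres and focal adhesions in non-muscle cells. The related genes that lay higher with TGFB1 were not all non-muscle forms. The muscle gene Mss51, near the median of all probe sets in control, read 4.03, 4.16 and 4.31 there and 5.30, 5.84 and 5.13 with TGFB1. Capn3, the muscle calpain, read 6.12, 6.02 and 5.64 in control and 6.57, 6.55 and 6.55 with TGFB1.

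Families with genes on both lists could also be read side by side, and were picked after their values were seen. In the α-actinins, Actn1 read 9.46, 9.42 and 9.46 in control, 10.22, 10.32 and 10.27 with TGFB1 and 9.00, 8.76 and 9.10 with ITD-1, and rose by 0.82 with TGFB1, while Actn2 and Actn3 differed by -0.32 and -0.18 and the other non-muscle form, Actn4, by -0.0088. In the filamins, Flna read 7.85, 7.88 and 8.01 in control, 8.68, 8.62 and 8.64 with TGFB1 and 7.34, 7.13 and 7.29 with ITD-1, and rose by 0.73, while muscle Flnc read 10.36, 10.53 and 10.46 in control, 10.42, 10.39 and 10.44 with TGFB1 and 10.54, 10.53 and 10.50 with ITD-1. Tpm4, a tropomyosin of non-muscle cells, rose by 0.70 while Tpm2 fell, and Tpm1 and Tpm3 differed by 0.11 and 0.24 without a call. The broadly expressed tropomodulin Tmod3 rose by 0.56 (limma, adjusted p = 0.037) while Tmod1 fell, and Tmod2, the neuronal form, differed by -0.028.

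Of the LIM proteins, Csrp1 and Csrp2, of smooth muscle and other cells, rose by 0.61 and 0.93 (limma, adjusted p = 0.00465 and 0.00094), and muscle Csrp3 differed by 0.12. Pdlim1 rose by 1.33, Pdlim7 differed by 0.44 without a call, and the members Pdlim3 and Pdlim5 by -0.12 and 0.22, while the PDZ-LIM member Ldb3 fell. The 3 genes of the 48 called with ITD-1 were Actn1, Pdlim1 and Flna, all lower, by 0.49, 0.79 and 0.66. They are 6.25% of the 48, against 0.575% of all tested called lower.

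**Figure D5:**
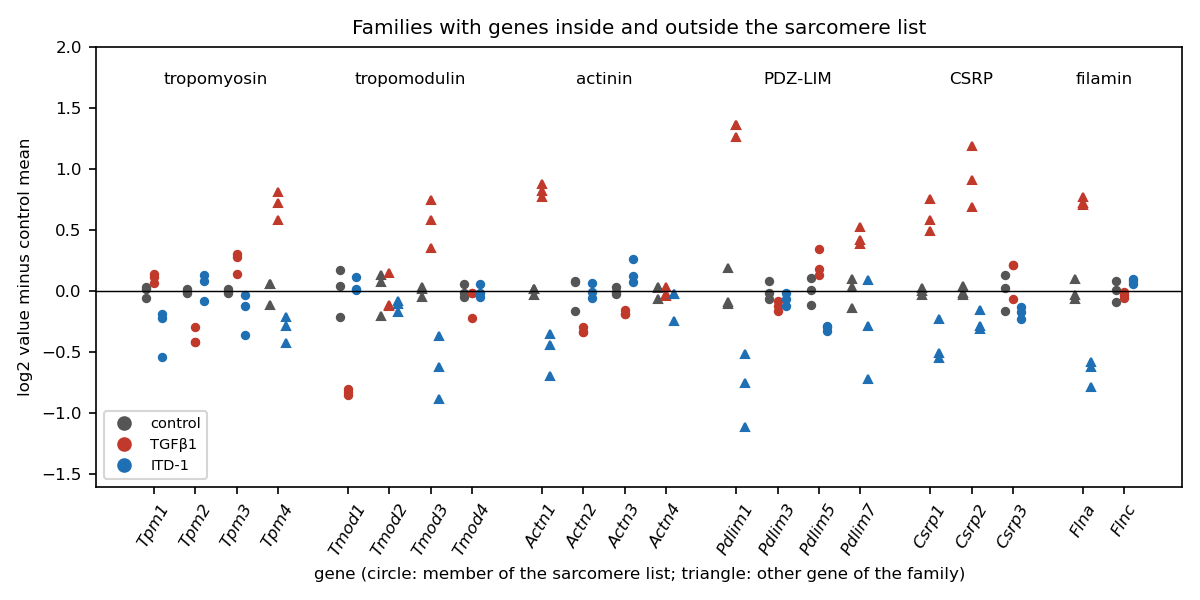
Log2 value of each array minus the gene's control mean, for families with genes inside (circles) and outside (triangles) the list of 56, in control, TGFB1 and ITD-1 cultures. Red triangles of Tpm4, Tmod3, Actn1, Pdlim1, Csrp1, Csrp2 and Flna lie above 0, while red circles of Tmod1, Tpm2 and Actn2 lie below 0. Red triangles of Pdlim7 and red circles of Tpm1, Tpm3 and Pdlim5 also lie above 0, without a call. Red circles of Actn3, Pdlim3, Flnc and Tmod4 also lie below 0, without a call. Red triangles of Actn4 and Tmod2 and red circles of Csrp3 lie on both sides of 0.

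Marker lists were read beside these results, and their part in them was not tested. Of 8 muscle cell markers, Ckm, muscle creatine kinase, rose with TGFB1 (0.93, limma, adjusted p = 0.00051) and 7 were not called, and the list's mean level was 10.41 to 10.51 in control, 10.49 to 10.57 with TGFB1 and 10.49 to 10.53 with ITD-1. Of 10 fibroblast markers, 7 were under the median of all probe sets in control, Col1a2 rose with TGFB1 and Col3a1 fell with ITD-1. The list's mean was 4.12 to 4.20 in control, 4.26 to 4.30 with TGFB1 and 4.03 to 4.07 with ITD-1. Of 6 smooth muscle markers, Tagln rose with TGFB1 and fell with ITD-1, and that list's mean was 6.63 to 6.69, 6.83 to 6.90 and 6.47 to 6.55. Of 5 satellite cell markers, Spry1 rose with TGFB1, with list means of 6.14 to 6.27, 6.26 to 6.39 and 5.89 to 6.07. By group means with TGFB1, 3 muscle cell markers lay above control and 5 below, and 2 satellite cell markers above and 3 below. For fibroblast markers these counts were 8 and 2, and for smooth muscle markers 3 and 3. A single gene such as Ckm or Spry1 can therefore move a list's mean. Of 8 markers of vessel, blood, nerve and epithelial cells, 0 were called (0 at an unadjusted p under 0.05), with means of 3.37 to 3.55 over all 9 arrays. Known TGFβ targets, partly picked because the publication discusses them and so no independent evidence, were read last. Of 7 such genes, 7 rose with TGFB1, and 2 of the 7, Fn1 and Tnc, fell with ITD-1.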

How the data were processed

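The authors hybridised cDNA made from total RNA to Affymetrix MouseGene 2.0 ST arrays. They used RMA (Bioconductor, custom CDF version 22) for normalisation, and deposited the log2 value of every probe set on each array. The submitters' processing notes also name Partek. No genome build is given for these probe sets in the sources used here. Of 25428 probe sets, named by Entrez gene ID, 24704 with 1 gene symbol were tested, 723 have no symbol and 1 shares a symbol. Groups come from the sample titles. No array was left out, 0 pairs of arrays hold identical values, and the number of arrays limits the precision.

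The log2 values were fitted with limma 3.58.1 in R 4.3.3 (lmFit and eBayes) over all 9 arrays, with 1 mean per group and 3 contrasts. The Benjamini-Hochberg adjustment ran over the 24704 probe sets, and a gene was called at an adjusted p under 0.05. Standard errors and 95% intervals are from this fit. No exact permutation p is given per gene, since 3 against 3 allows 0.1 at best. The study's own criteria, at least 1.5-fold with an analysis of variance p under 0.05 before adjustment, were an alternative, beside median centring, cyclic loess, a filter at the median level, trend and robust settings, fits of 2 groups only, replicate as a block, and each array left out in turn.

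The 56 members and the other lists were chosen with earlier results of these data known. Values on every array are given for members called against control with a log2 difference of at least 1 and for the 10 smallest adjusted p per comparison. Family partners of these are given with values on every array in some cases, and otherwise by a difference or a range. Of the related genes, the 3 with the smallest adjusted p per direction are named. Lists are described by counts and medians, without a test. Residuals of same-numbered control and TGFB1 arrays correlated at 0.138, 0.155 and 0.305. Replicate number was therefore taken as a pairing for that comparison in the alternative fits with a block, although the labels do not state one. The main fit, which gave the calls and the adjusted p-values unless a block is named, did not use it. For the other comparisons the correlations ran from -0.117 to 0.146, and the numbers were not taken as pairs.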

Additional observations from a re-analysis of the deposited data

How the results depend on the processing

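Every difference called for a member kept its direction under all alternatives that tested it. With TGFB1 against control, 13 of the 22 calls were kept under all 17 alternatives other than the study's criteria, Xirp2 under the 16 that tested it, and 8 were lost under some (Tnni2, Tpm2, Lmod3, Obsl1, Actn2, Synpo2, Klhl41 and Unc45b). Leaving out 1 array gave 15 to 22 calls (2 to 3 higher and 13 to 20 lower), 0 with ITD-1, and 26 to 32 for TGFB1 against ITD-1 (5 to 9 higher and 21 to 23 lower). The study's criteria gave 11 (9 lower) with TGFB1 and 15 (3 higher and 12 lower) for TGFB1 against ITD-1, the fold limit leaving out small changes. With ITD-1, cyclic loess called 1 member lower (Tnnt1, adjusted p = 0.0284), as did trend and robust settings (1, adjusted p = 0.0307). The filter at the median level, which tests fewer probe sets and keeps 51 members (Myl2 through its TGFB1 arrays, and Xirp2 not among them), called 2, 1 lower (Tnnt1, 0.0316) and 1 higher (Obsl1, 0.0495), and the analysis of variance called 1 higher (Obsl1, 0.0421). The cause was not tested for the other settings. Tnnt1 rose with TGFB1 under 4 such settings (adjusted p 0.0197 to 0.036) and without ITD-1 replicate 3 (0.0182). Median centring gave 2 higher and 16 lower with TGFB1 (Tnni2, Obsl1, Actn2 and Klhl41 lost). Cyclic loess gave 3 and 19 (Actn2 lost, Tnnt1 gained), with a median member difference of -0.11. The analysis of variance, adjusted over all genes, gave 2 and 15 (Tnni2, Actn2, Synpo2, Klhl41 and Unc45b lost). The fit of 2 groups only gave 3 and 17 (Tnni2, Actn2 and Unc45b lost, Tnnt1 gained). With replicate as a block, 2 were higher and 18 lower with TGFB1 (Tnni2, Obsl1 and Actn2 lost, Tnnt3 gained). A block in a fit of the control and TGFB1 arrays only, chosen after seeing the data, gave 2 and 19, without Obsl1 (0.0947), Actn2 (0.104) and Klhl41 (0.0528) and with Tnnt3 (0.0476) and Cryab (0.036). With the block, ITD-1 gave 0 and TGFB1 against ITD-1 gave 9 higher and 23 lower, the gains being Tcap, Myot and Csrp3, where the numbers were not taken as pairs. The block changed no other call. Signals near the array median limit what can be seen of Myl3, Mybpc2, Myoz1, Myoz3 and Tmod4, and of the size of the rises of Myl2 and Xirp2 from control.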
